A study of Homo sapiens with 16 samples.

Results

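Genes of mitosis and of the G2 phase before it were followed in Molm14, an established acute myeloid leukaemia cell line, after inhibition of 2 histone methyltransferases. The 50 genes are a list of names, of cyclins, mitotic kinases and genes of the spindle and kinetochore. The rule for membership uses no measured value, though the list was drawn up with earlier results of these data known. All 50 were found by Ensembl ID among the 22445 rows of the expression table, and each passed the minimum for testing (more than 1 normalised count in 4 or more libraries). There were 4 groups of 4 libraries from cells kept for 7 days with replacement of medium and drug on day 4. The groups received DMSO, 0.16 uM of the DOT1L inhibitor EPZ5676 (iDOT1L), 0.3 uM of the EZH2 inhibitor GSK126 (iEZH2), or both inhibitors (Combo). DOT1L is the methyltransferase of lysine 79 on histone H3, and EZH2, within Polycomb repressive complex 2, is that of lysine 27.

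Cells commit to division when cyclin B binds CDK1 and CDC25 phosphatases activate the complex. Kinetochores then attach chromosomes to the spindle, the spindle checkpoint holds back the anaphase-promoting complex (APC/C) until every chromosome is attached, and CDC20 finally switches APC/C on so that securin and cyclin B are destroyed. Most of these genes are transcribed late in the cycle. Their promoters are held down by the DREAM complex in resting cells and activated by B-MYB and FOXM1 with the MuvB core, through a short element called CHR, together with the CCAAT-binding factor NF-Y. Because the libraries are from bulk cultures, fewer cells in G2 and mitosis cannot be told apart from less RNA of these genes per cell.

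The promoters are shown first because the members share sequence that their choice did not use. RefSeq (GRCh38.p14) promoter windows of 300 bases, from 250 before to 50 after the most upstream start, were matched by symbol for 41 of 50 members. The 150 bases before the start are printed for 4 members that were called in a comparison (CDC20, ASPM, MKI67 and CENPF) and for 2 with 1 match of each motif close to the start (KIF11, a spindle motor, and ESPL1, the separase that cuts cohesin). They are chr1:43358831-43358980 (plus strand) for CDC20, chr1:197146670-197146819 (minus strand) for ASPM, chr10:128126424-128126573 (minus strand) for MKI67, chr1:214603045-214603194 (plus strand) for CENPF, chr10:92592980-92593129 (plus strand) for KIF11 and chr12:53268149-53268298 (plus strand) for ESPL1. Capitals mark CHR letters (TTTGAA or TTCGAA) and NF-Y letters (CCAAT) on either strand, and in MKI67 a match of each kind overlaps.
CDC20: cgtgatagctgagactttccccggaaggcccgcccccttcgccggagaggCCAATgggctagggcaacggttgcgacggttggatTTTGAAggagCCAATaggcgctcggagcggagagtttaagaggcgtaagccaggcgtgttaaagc
ASPM: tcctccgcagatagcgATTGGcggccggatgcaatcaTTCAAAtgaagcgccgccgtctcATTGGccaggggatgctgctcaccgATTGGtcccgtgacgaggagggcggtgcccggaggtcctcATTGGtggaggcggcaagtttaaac
MKI67: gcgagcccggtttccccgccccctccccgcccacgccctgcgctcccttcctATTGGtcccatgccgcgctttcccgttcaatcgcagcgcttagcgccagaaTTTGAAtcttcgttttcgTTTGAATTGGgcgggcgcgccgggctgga
CENPF: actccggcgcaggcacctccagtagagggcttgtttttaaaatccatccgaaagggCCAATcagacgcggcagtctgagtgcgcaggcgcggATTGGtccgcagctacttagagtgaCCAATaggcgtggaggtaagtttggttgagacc
KIF11: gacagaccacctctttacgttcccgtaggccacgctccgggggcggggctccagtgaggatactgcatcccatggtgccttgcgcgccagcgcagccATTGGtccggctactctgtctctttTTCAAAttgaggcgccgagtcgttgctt
ESPL1: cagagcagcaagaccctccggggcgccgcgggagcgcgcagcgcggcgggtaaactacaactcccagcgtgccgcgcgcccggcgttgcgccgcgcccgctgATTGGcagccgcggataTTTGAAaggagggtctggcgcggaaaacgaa

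CHR letters were found in 31 of 41 member windows (75.6%) and in 16.7% of the windows of 27305 genes. Windows with a CHR match starting within 60 bases before the start or after it made up 65.9% of the member windows and 5.5% of all windows, a distance chosen after the positions were seen. NF-Y letters occurred in 32 member windows (78.0%, against 35.7% of all), and 2 or more matches occurred in 19 (46.3%, against 11.3%). Both motifs together were in 26 member windows, 63.4% against 6.6% of all. The E2F motif, typical of genes of the G1/S transition, was searched as TTCCCGC and as TTGGCGC, and further as TTCGCGC and as TTGCCGC, and was in 14 member windows (34.1%, against 13.0%). Forkhead letters (GTAAACA), the motif of the FOXM1 family, were in 1 (CDK1, 2.4%, against 3.4%). Among the 12852 windows of genes in the expression table, the shares were 12.3% for CHR, 36.2% for NF-Y, 18.7% for E2F and 2.5% for forkhead letters. The windows of CDC25B, CDC25C, CENPE and KIF2C held neither CHR nor NF-Y letters. Only the window of the most upstream start was searched, so letters near another start of these genes would be missed. For 37 of the 41 members the 30 bases after the start were found in a GENCODE transcript. All motifs were searched on both strands, and a match is a description of letters, not a binding site.

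**Figure D1:**
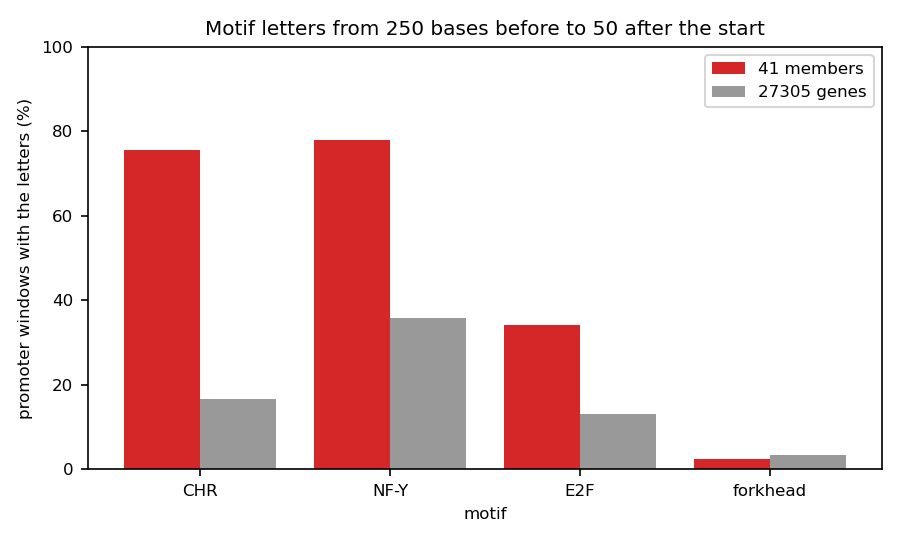
Share of promoter windows (percent, y axis) that hold the letters of each motif (x axis) for 41 members (red) and for 27305 genes (grey). CHR letters are in 75.6% of member windows and 16.7% of all windows, and NF-Y letters in 78.0% and 35.7%, while forkhead letters are in 2.4% and 3.4%.

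The libraries held an estimated 20700000 to 27200000 reads. Values are normalised counts, which the authors scaled between libraries. Fold changes are log2 differences of group means of the normalised count plus 1, with their standard error (SE) from limma, and a gene was called at a Benjamini-Hochberg adjusted p under 0.05 over 22331 genes. The labels do not say that replicates were separate cultures, so the p-values describe the spread among these libraries, which may be technical. All 12 myeloid markers listed, among them PTPRC, SPI1 and CD33, averaged at least 50 normalised counts over the 16 libraries, with summed levels of 36710 to 41810 in DMSO, 48280 to 52830 with iDOT1L, 31080 to 38490 with iEZH2 and 47160 to 55050 with Combo. The sums cover opposite moves of single myeloid markers. From DMSO to iDOT1L the mean of MPO went from 862.4 to 5031 and that of LYZ from 2463 to 9051. The mean of FLT3 went from 9243 to 6139 and that of ITGAM from 990.6 to 415.5. Of 6 markers of T and B cells, 4 had a value, with sums of 89.96 to 107.4 in DMSO, 104.4 to 148.3 with iDOT1L, 68.17 to 84.18 with iEZH2 and 78.52 to 153.7 with Combo. For erythroid cells and megakaryocytes 3 of 6 had a value, mainly EPOR, with sums of 414.8 to 467.4, 363.4 to 413.4, 272.7 to 334.2 and 287.9 to 314.9 in the same order. All 6 markers of epithelial cells and fibroblasts had a value, mainly KRT18, with sums of 1124 to 1536, 790.7 to 1053, 1211 to 1570 and 1010 to 1277, and the part of these shifts in the results was not tested.

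Every member was expressed, with means over the 16 libraries of 201.4 to 19390 normalised counts. Per kilobase of annotated exon, the highest levels in DMSO were those of TOP2A, the topoisomerase that untangles sister chromatids (2252 normalised counts per kb), and CDK1, the kinase that drives mitosis (2030). BUB3, a checkpoint protein, followed at 1624 per kb, NUSAP1 at 1490 and PLK1 at 1416. The lowest were those of CDC25C, a phosphatase that activates CDK1 (105.2 per kb), SPC25, a subunit of the kinetochore NDC80 complex (136.2), and the kinesin KIF18A (143.5). Of the 31-base words of their transcripts, over 20% also occur in other genes for NUSAP1 (61.6%), PRC1 (56.4%), KIF4A (27.9%) and CDC20 (20.3%), so the levels of these 4 are uncertain.

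Libraries of 1 group differed from each other in the general level of the members. The median over the 50 members of the log2 difference from the DMSO mean was -0.16, 0.14, -0.01 and 0.05 in DMSO libraries 1 to 4. It was -0.16, 0.12, 0.06 and 0.08 with iDOT1L, 0.10, 0.16, 0.16 and 0.22 with iEZH2 and 0.08, 0.12, 0.08 and 0.06 with Combo. The DMSO and iDOT1L libraries of replicate 1 were the lowest of all 16, with 19 and 20 members at their minimum there, and iEZH2 libraries 4 and 2 held the maximum of 13 and 12 members. DMSO 1 had 1 member above the DMSO mean and DMSO 2 had 47, so the controls themselves spread widely.

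**Figure D2:**
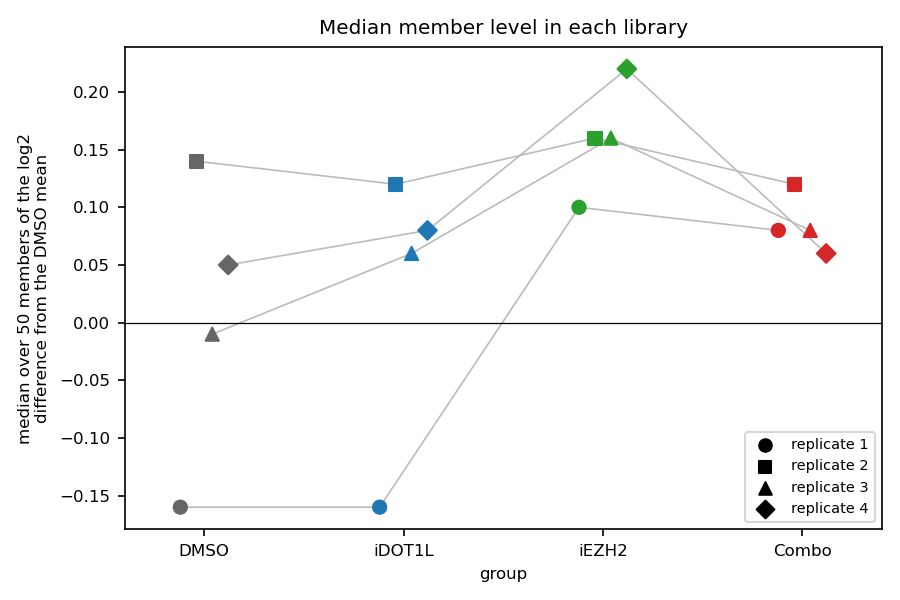
Median over 50 members of the log2 difference from the DMSO mean (y axis) in each library, by group (x axis), with symbols for replicate 1 to 4 and grey lines joining equal replicate numbers. DMSO and iDOT1L of replicate 1 lie at -0.16, and the 4 iEZH2 libraries lie between 0.10 and 0.22, overlapping DMSO 2 at 0.14.

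Against DMSO, few members were called when replicate numbers were not treated as pairs, and more were called with the numbers as a block. That fit is given beside the single treatments because residuals of their same-numbered libraries correlated, though weakly for replicate 3 (0.109 to 0.198). With iDOT1L 1 member rose and 1 fell (2 of 50), where 6.25% of all genes were called, 3.08% higher and 3.17% lower. With the block 4 rose and 3 fell (5.69% and 6.53% of all genes). The median log2 fold change was 0.02 over the members (-0.04 to 0.06 with 1 library left out) and 0.01 over all genes tested. With iEZH2 no member was called (3.35% of all genes were, 1.3% higher and 2.05% lower). There 12 members had an unadjusted p under 0.05, as did 3511 of 22331 genes. Of the 50 differences 48 were above 0, with a median of 0.16. With the block this call changed, and 10 members rose with iEZH2 (9.76% of all genes called, 3.87% higher). With Combo 5 rose and 2 fell (7 of 50), where 16% of all genes were called, 7.22% higher and 8.8% lower, and the median was 0.07 (0.03 without DMSO 1 and 0.14 without DMSO 2), against 0.03 over all genes. Of the 9843 genes whose mean level lay within the members' range, 9.4% were called with iDOT1L, 5.3% with iEZH2 and 24.5% with Combo. With the block 19.9% of them were called with iDOT1L and 17.0% with iEZH2. The groups did not overlap for 1 higher and 2 lower members with iDOT1L (6.05% and 6.42% of all genes) and for 6 higher and 2 lower with Combo (9.62% and 10.3%). The comparisons share the 4 DMSO libraries, so they are not independent of each other. In what follows, called and not called refer to the fit without the block unless another fit is named. The SE of a member's fold change was 0.07 to 0.34 with a median of 0.10, and SPC25, with 93.03 to 295.1 normalised counts in DMSO, had the widest.

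**Figure D3:**
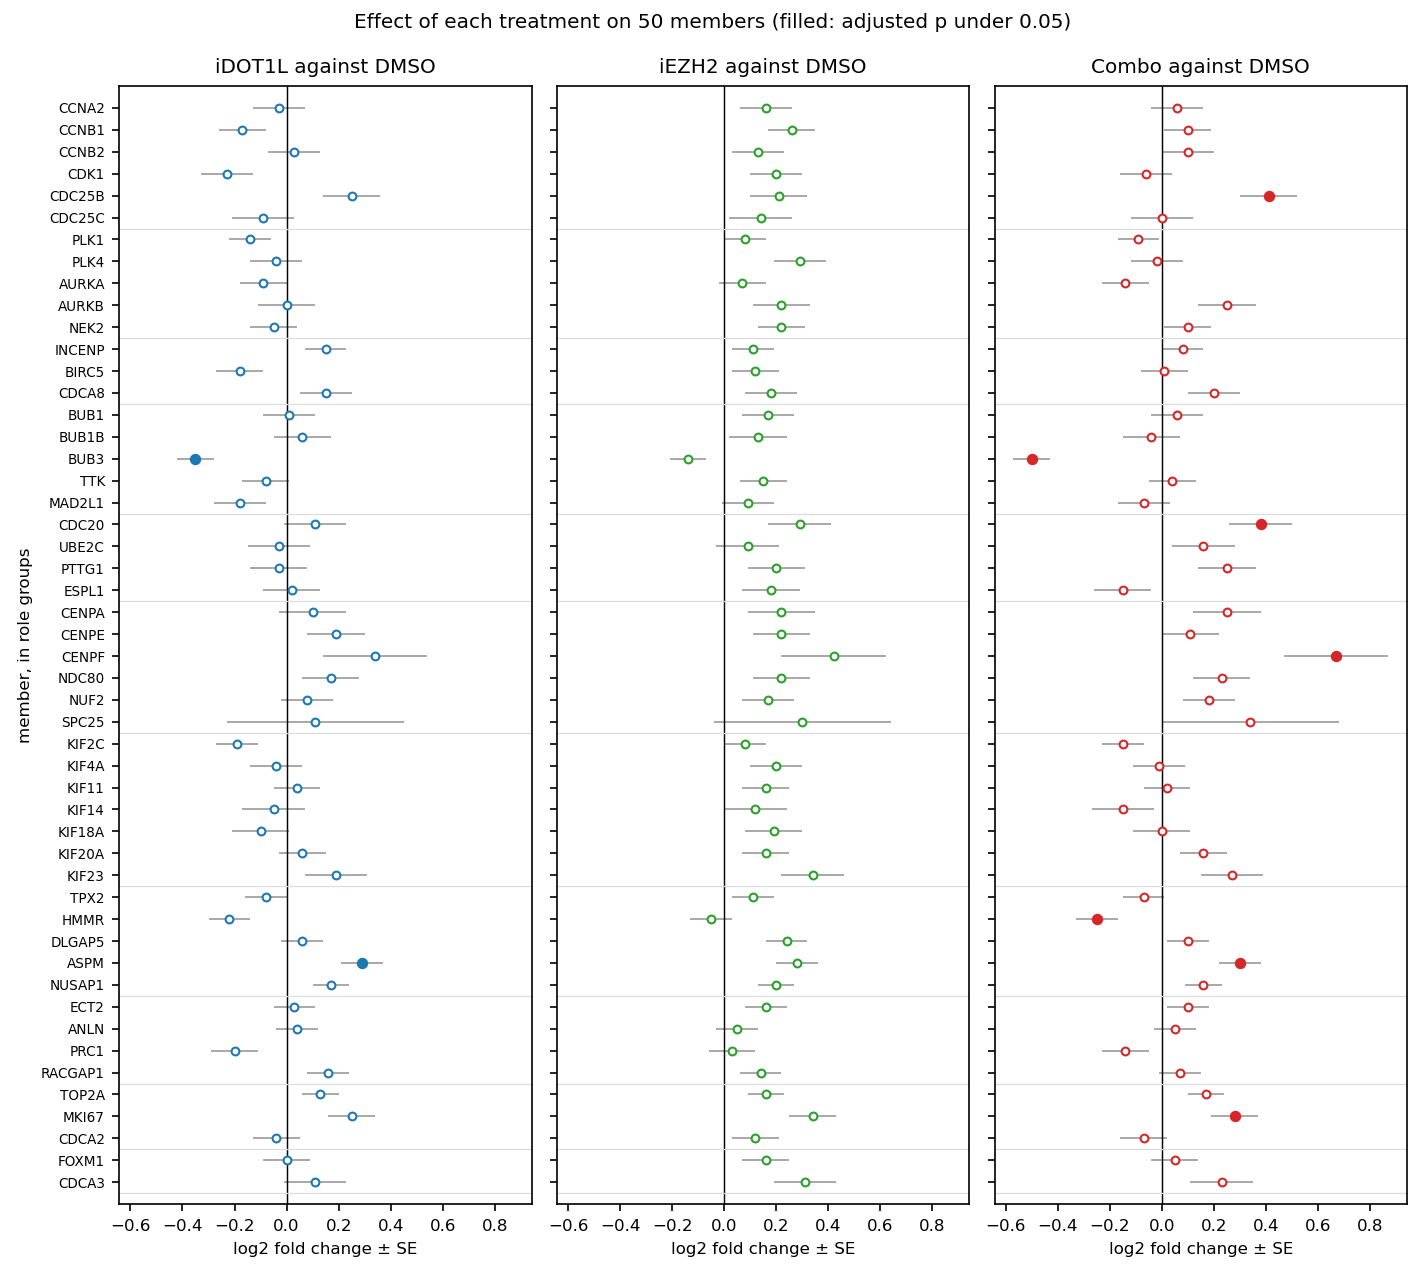
Log2 fold change with SE (x axis) of each of the 50 members (y axis, in role groups) for iDOT1L, iEZH2 and Combo against DMSO, filled where the adjusted p was under 0.05. BUB3 at -0.50 and CENPF at 0.67 are the outermost called points, both with Combo, and 48 of 50 points lie right of 0 with iEZH2 without any being filled.

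The spindle checkpoint held the member with the clearest change. BUB3 (ENSG00000154473, chr10:123154277-123170467, GRCh38), which brings BUB1 and BUBR1 to unattached kinetochores, had 11445, 13183, 12832 and 13385 normalised counts in DMSO 1 to 4. With iDOT1L it had 9252, 9844, 10093 and 10594, with iEZH2 11259, 12455, 12070 and 10429, and with Combo 8869, 8790, 9308 and 8831. Every iDOT1L and Combo library lay below every DMSO library, whereas the iEZH2 libraries overlapped both DMSO and iDOT1L. BUB3 fell by 0.35 ± 0.07 with iDOT1L (limma adjusted p = 0.00627) and by 0.50 ± 0.07 with Combo (adjusted p = 9.99e-05), from 12710 ± 874 to 8949 ± 241 (mean ± SD, n = 4). It was also lower with Combo than with iEZH2 (-0.37 ± 0.07, limma adjusted p = 0.00679), and these 3 calls held in all 8 fits that left out 1 library of the comparison. Against iDOT1L the Combo value was -0.15 ± 0.07 (limma adjusted p = 0.321). The other 4 checkpoint members, BUB1, BUB1B, the kinase TTK and MAD2L1, were not called against DMSO, with differences of -0.18 to 0.17.

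The group means of all 6 kinetochore and centromere members lay above DMSO with each treatment, and 1 of the 6 was called. CENPF (ENSG00000117724, chr1:214603195-214664588), a large coiled-coil protein of the outer kinetochore that accumulates in G2, had 7796, 8185, 9135 and 10443 normalised counts in DMSO and 8370, 10548, 12286 and 14208 with iDOT1L. It had 9597, 9156, 13227 and 16941 with iEZH2 and 13683, 10611, 16240 and 16658 with Combo. The spread within each treated group was wide, and only Combo lay entirely above DMSO. CENPF rose by 0.67 ± 0.20 with Combo (limma adjusted p = 0.0278), a call kept in 2 of 8 fits and lost without DMSO 1, 2 or 3 or Combo 1, 3 or 4 (highest adjusted p = 0.0848). The motor CENPE, the NDC80 complex members NDC80, NUF2 and SPC25, and the centromeric histone CENPA differed from DMSO by 0.08 to 0.34 over the 3 treatments. None of those 5 was called, and CENPE with iEZH2 (2072 to 2399) lay above DMSO (1720 to 2017) without overlap.

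Among the CDC25 phosphatases, CDC25B rose with Combo and CDC25C did not pass. CDC25B (ENSG00000101224, chr20:3786772-3806121), which starts CDK1 activation at the centrosome in late G2, had 1204, 1290, 1484 and 1399 normalised counts in DMSO. It had 1437, 1584, 1691 and 1672 with iDOT1L, 1457, 1363, 1480 and 1943 with iEZH2 and 1596, 1646, 1902 and 2002 with Combo. Combo lay above DMSO in every library (0.41 ± 0.11, limma adjusted p = 0.0155), while both single treatments overlapped DMSO. The call was lost without DMSO 1, Combo 3 or Combo 4 (highest adjusted p = 0.0622). CDC25C stood at 253.0, 296.3, 259.6 and 273.0 in DMSO and at 324.7, 239.7, 243.5 and 276.7 with Combo (-0.00 ± 0.12, limma adjusted p = 0.986).

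Without the block the mitotic cyclins and CDK1 were not called against DMSO, and CCNB1 and CDK1 separated iDOT1L from iEZH2. CCNB1 (ENSG00000134057, chr5:69167010-69178245), cyclin B1, had 2256, 2948, 2534 and 2827 normalised counts in DMSO and 2002, 2448, 2414 and 2488 with iDOT1L. It had 2962, 3339, 3168 and 3159 with iEZH2 and 3083, 2587, 2875 and 2760 with Combo. The 4 iEZH2 libraries lay above all DMSO and iDOT1L libraries, and CCNB1 was lower with iDOT1L than with iEZH2 (-0.44 ± 0.09, limma adjusted p = 0.00642). CDK1 (ENSG00000170312, chr10:60778331-60794852) had 3537, 4225, 4244 and 4535 in DMSO, 3027, 3446, 3660 and 3967 with iDOT1L, 4870, 4358, 5102 and 4649 with iEZH2 and 4448, 3594, 4048 and 3799 with Combo. Its iDOT1L and iEZH2 libraries did not overlap (-0.43 ± 0.10, limma adjusted p = 0.00867), and both calls held in all 8 fits without 1 library. Cyclins A2 and B2 (CCNA2, CCNB2) differed between iDOT1L and iEZH2 by -0.18 and -0.10 and were not called.

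Of the APC/C and anaphase members, CDC20 rose with Combo. CDC20 (ENSG00000117399, chr1:43358955-43363203), the activator of APC/C at anaphase, had 2133, 2880, 2274 and 2429 normalised counts in DMSO and 2069, 3021, 2681 and 2724 with iDOT1L. With iEZH2 it had 2476, 3431, 3104 and 2908, and with Combo 3218, 3162, 3225 and 2982. Combo libraries were all above DMSO (0.38 ± 0.12, limma adjusted p = 0.0324). The call was lost without DMSO 1, 3 or 4 or Combo 1, 2 or 3 (highest adjusted p = 0.108). The ubiquitin-conjugating enzyme UBE2C, securin (PTTG1) and ESPL1 differed from DMSO with Combo by 0.16, 0.25 and -0.15 and were not called, and ESPL1 stood at 1102 normalised counts in Combo 1 and at 1463 to 1595 in the other Combo libraries.

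Spindle assembly members moved in both directions. ASPM (ENSG00000066279, chr1:197084128-197146694), a spindle pole protein, had 3783, 4524, 3617 and 4065 normalised counts in DMSO and 4692, 5145, 4774 and 4881 with iDOT1L. It had 5041, 4715, 4354 and 5282 with iEZH2 and 4610, 5221, 4939 and 4851 with Combo. All iDOT1L and Combo libraries exceeded all DMSO libraries, and ASPM rose by 0.29 ± 0.08 with iDOT1L (limma adjusted p = 0.0396) and 0.30 ± 0.08 with Combo (adjusted p = 0.0169). The Combo call was lost without DMSO 1 or 3 (highest adjusted p = 0.0661). The iDOT1L call was lost without DMSO 1, 3 or 4 or iDOT1L 2, 3 or 4 (highest adjusted p = 0.142), and iEZH2 gave 0.28 ± 0.08 (limma adjusted p = 0.0700).

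HMMR (ENSG00000072571, chr5:163460203-163491945), a hyaluronan receptor that also binds spindle microtubules, had 1681, 1788, 1745 and 1801 normalised counts in DMSO. It had 1329, 1486, 1539 and 1677 with iDOT1L, 1759, 1746, 1625 and 1638 with iEZH2 and 1413, 1521, 1509 and 1472 with Combo. The iDOT1L and Combo libraries lay below DMSO without overlap, and the Combo fall of -0.25 ± 0.08 was called (limma adjusted p = 0.0360). It was lost without DMSO 2, 3 or 4 or Combo 1, 3 or 4 (highest adjusted p = 0.0895). TPX2, which activates Aurora A on the spindle, DLGAP5 and NUSAP1 were not called against DMSO without the block, with differences of -0.08 to 0.24.

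Of the 3 members of chromosome structure and periphery, MKI67 was called with Combo, and TOP2A and CDCA2 were not called. MKI67 (ENSG00000148773, chr10:128096659-128126385), the Ki-67 antigen that coats mitotic chromosomes, had 15541, 19562, 14664 and 16904 normalised counts in DMSO and 18456, 22013, 18427 and 20015 with iDOT1L. It had 20818, 20852, 19739 and 22272 with iEZH2 and 17754, 22059, 21179 and 19987 with Combo. All iEZH2 libraries lay above DMSO (0.34 ± 0.09, limma adjusted p = 0.0535, not called), whereas Combo overlapped DMSO 2 and was called (0.28 ± 0.09, adjusted p = 0.0430). The Combo call was lost without DMSO 1, 3 or 4 or Combo 2, 3 or 4 (highest adjusted p = 0.144). TOP2A (ENSG00000131747, chr17:40388516-40417950) had 11824, 13766, 12931 and 13341 in DMSO, 13141, 14318, 14320 and 15132 with iDOT1L, 14994, 13461, 13681 and 15634 with iEZH2 and 14919, 14234, 14656 and 14388 with Combo. Its Combo libraries lay above DMSO without overlap, and the difference of 0.17 ± 0.07 was not called (limma adjusted p = 0.128).

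**Figure D4:**
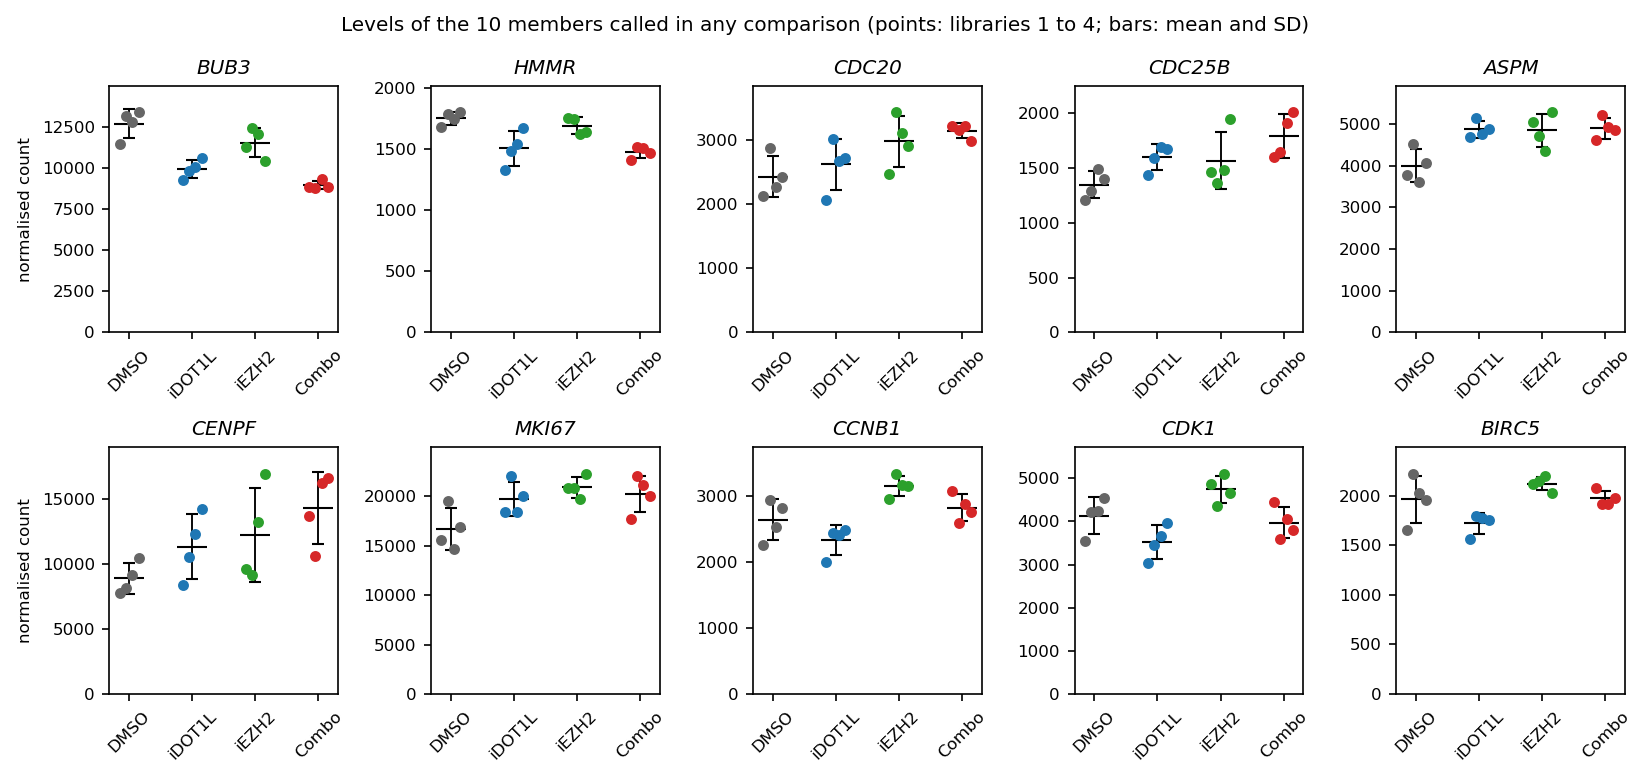
Normalised counts (y axis, from 0) of the 10 members called in any comparison without the replicate block, by group (x axis), with 1 point per library and bars for the mean and SD of 4 libraries. BUB3 and HMMR lie lower with Combo than with DMSO, CENPF, CDC20, CDC25B, ASPM and MKI67 lie higher, and CCNB1, CDK1 and BIRC5 are lower with iDOT1L than with iEZH2.

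None of the 5 polo, Aurora and NEK2 kinases was called in any comparison without the replicate block. With the block PLK1, PLK4 and NEK2 were called in comparisons given below. PLK1 (ENSG00000166851, chr16:23677656-23690367), the polo-like kinase of centrosome maturation and mitotic entry, had 2791, 3400, 3073 and 3347 normalised counts in DMSO, 2693, 3003, 2772 and 2936 with iDOT1L, 3300, 3532, 3279 and 3183 with iEZH2 and 3119, 2913, 2847 and 2918 with Combo. AURKA (ENSG00000087586, chr20:56369389-56392337), the spindle pole kinase Aurora A, had 1310, 1554, 1271 and 1506 in DMSO, 1151, 1364, 1325 and 1450 with iDOT1L, 1436, 1492, 1540 and 1447 with iEZH2 and 1188, 1311, 1362 and 1245 with Combo. For both genes the iEZH2 libraries lay above the Combo libraries without overlap, and every treated group overlapped DMSO. AURKB (ENSG00000178999, chr17:8204733-8210600), Aurora B of the chromosomal passenger complex, had 832.4, 1033, 958.2 and 999.3 in DMSO, 793.6, 1009, 999.8 and 1042 with iDOT1L, 937.7, 1047, 1130 and 1370 with iEZH2 and 1149, 1068, 1171 and 1152 with Combo. Its Combo libraries lay above DMSO (0.25 ± 0.11, limma adjusted p = 0.148), and the widest kinase difference was that of PLK4, which duplicates centrioles, between iDOT1L and iEZH2 (-0.32 ± 0.10, limma adjusted p = 0.0589).

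In the chromosomal passenger complex, which corrects faulty attachments, BIRC5 (survivin; ENSG00000089685, chr17:78214186-78225636) had 1652, 2221, 2029 and 1961 normalised counts in DMSO and 1563, 1795, 1774 and 1758 with iDOT1L. It had 2115, 2148, 2200 and 2033 with iEZH2 and 2081, 1914, 1917 and 1978 with Combo. The iDOT1L libraries lay below all iEZH2 and Combo libraries, and BIRC5 was lower with iDOT1L than with iEZH2 (-0.30 ± 0.09, limma adjusted p = 0.0369). That call was lost without iDOT1L 1, 3 or 4 or iEZH2 1, 2 or 3 (highest adjusted p = 0.122). The scaffold INCENP and CDCA8 (borealin) were not called in any comparison without the block.

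Without the replicate block, kinesins, cytokinesis genes and regulators of entry were not called against DMSO. With the block KIF23, KIF2C and CDCA3 were called, as given below. KIF23 (ENSG00000137807, chr15:69414246-69448427), the motor of the central spindle, had 985.3, 1285, 1361 and 1222 normalised counts in DMSO, 1134, 1370, 1469 and 1556 with iDOT1L, 1273, 1501, 1561 and 1795 with iEZH2 and 1391, 1347, 1642 and 1432 with Combo. Its groups overlapped, and it had the lowest p of the 7 kinesins with Combo (0.27 ± 0.12, limma adjusted p = 0.157). PRC1 (ENSG00000198901, chr15:90966038-90995629), which bundles antiparallel microtubules, had 3867, 4748, 4251 and 4949 in DMSO, 3443, 3941, 4133 and 4007 with iDOT1L, 4502, 4581, 4664 and 4347 with iEZH2 and 3534, 4158, 4225 and 4187 with Combo. Its iEZH2 libraries lay above iDOT1L and Combo without overlap, and every group overlapped DMSO. The cytokinesis regulators ECT2, ANLN and RACGAP1 differed from DMSO by 0.03 to 0.16 over the 3 treatments. FOXM1 (ENSG00000111206, chr12:2857681-2877155), a transcription factor of G2 genes, had 1563, 1825, 1719 and 1750 in DMSO, 1490, 1846, 1676 and 1845 with iDOT1L, 1792, 2034, 2002 and 1823 with iEZH2 and 1576, 1855, 1749 and 1941 with Combo, and every group overlapped DMSO (0.16 ± 0.09 with iEZH2, limma adjusted p = 0.427). CDCA3, a trigger of mitotic entry, and CDCA2, a phosphatase subunit on chromosomes, were not called without the block either.

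With iEZH2 alone the differences were small and nearly all above 0. The 48 members above 0 of 50 compare with 52.1% of all genes tested, and with 47.3% of the 9843 genes whose mean level lay within the members' range, whose median was -0.01. Members moved together from library to library (1 above the DMSO mean in DMSO 1 and 47 in DMSO 2). Counts of members above or below 0 are therefore not counts of independent results. BUB3 (-0.14) and HMMR (-0.05) were the 2 members below 0. The groups did not overlap for 6 members, all higher with iEZH2, namely CCNB1, CENPE, MKI67, DLGAP5, NUSAP1 and ESPL1 (3.67% of all genes were higher without overlap). Without DMSO 1 the member median was 0.11, and without DMSO 2 it was 0.21 with 2 members called higher.

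With the replicate block the 10 members that rose with iEZH2 against DMSO, while none fell (5.89% of all genes were lower), were MKI67 (limma adjusted p = 0.00251), CENPF (0.00813), ASPM (0.00887), KIF23 (0.0110), CDCA3 (0.0180), PLK4 (0.0187), CDC20 (0.0252), NUSAP1 (0.0309), DLGAP5 (0.0357) and CCNB1 (0.0497). With iDOT1L 4 rose, namely ASPM, MKI67, CENPF and CDC25B, and 3 fell, namely BUB3, HMMR and KIF2C (12.2% of all genes called, 5.69% higher and 6.53% lower). In that fit with the block the limma adjusted p was 0.0156 for MKI67, 0.0267 for CENPF, 0.0344 for CDC25B, 0.0363 for HMMR and 0.0435 for KIF2C, a kinesin that depolymerises microtubules.

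Set directly against each other, the single treatments differed in 3 members. CCNB1, CDK1 and BIRC5 were lower with iDOT1L than with iEZH2, and none was higher (6.94% of all genes called, 3.88% higher and 3.06% lower). Of all 50 members 46 lay lower with iDOT1L, with a median of -0.17 against 0.00 over all genes, and the libraries of 11 members did not overlap, all lower with iDOT1L (5.04% of all genes). With same-numbered libraries as pairs 12 were lower (14.3% of all genes called, 7.35% higher and 6.91% lower). Of the 9843 genes whose mean level lay within the members' range, 24.7% were called in that fit, in either direction. The 12 of 50 members were thus no larger a share than that of genes at their level called in either direction. All 12 were lower, and a share of lower calls alone was not computed for those genes. The 9 added in that fit were KIF2C (limma adjusted p = 0.00410), PLK4 (0.00620), BUB3 (0.0218), PRC1 (0.0232), PLK1 (0.0237), TPX2 (0.0310), TTK (0.0359), MAD2L1 (0.0361) and NEK2 (0.0447). The iDOT1L library of replicate 1 was the lowest of all 16 for 20 members, and without it the median was -0.10.

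Adding the second inhibitor to the first changed few members. No member was called for Combo against iDOT1L (2.58% of all genes were, 1.11% higher and 1.48% lower), with a median of 0.06 (0.00 without iDOT1L 1). An unadjusted p under 0.05 was found for 5 of 50 members and for 3715 of 22331 genes. CCNB1, AURKB and BIRC5 lay higher in every Combo library than in every iDOT1L library (5.08% of all genes were higher without overlap). Against iEZH2, Combo was lower for BUB3 alone (3.81% of all genes called, 2.08% higher and 1.72% lower), and 2 members were lower without Combo 2. There 35 of 50 members lay below 0 with a median of -0.10, and 10 members, among them PLK1, AURKA, KIF2C, TPX2 and HMMR, were lower with Combo without overlap (3.92% of all genes). For the interaction, that is Combo minus both single effects, limma called no member and no gene at all (0.0% of all genes), and without trend and robust moderation 1 gene. At an unadjusted p under 0.05 there were 4 members (ASPM, MKI67, ESPL1 and NUSAP1, -0.21 to -0.35) and 848 genes, and 42 of 50 member values lay below 0 with a median of -0.09, which was -0.03 without DMSO 1, -0.06 without iDOT1L 2 and -0.16 without iDOT1L 1.

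**Figure D5:**
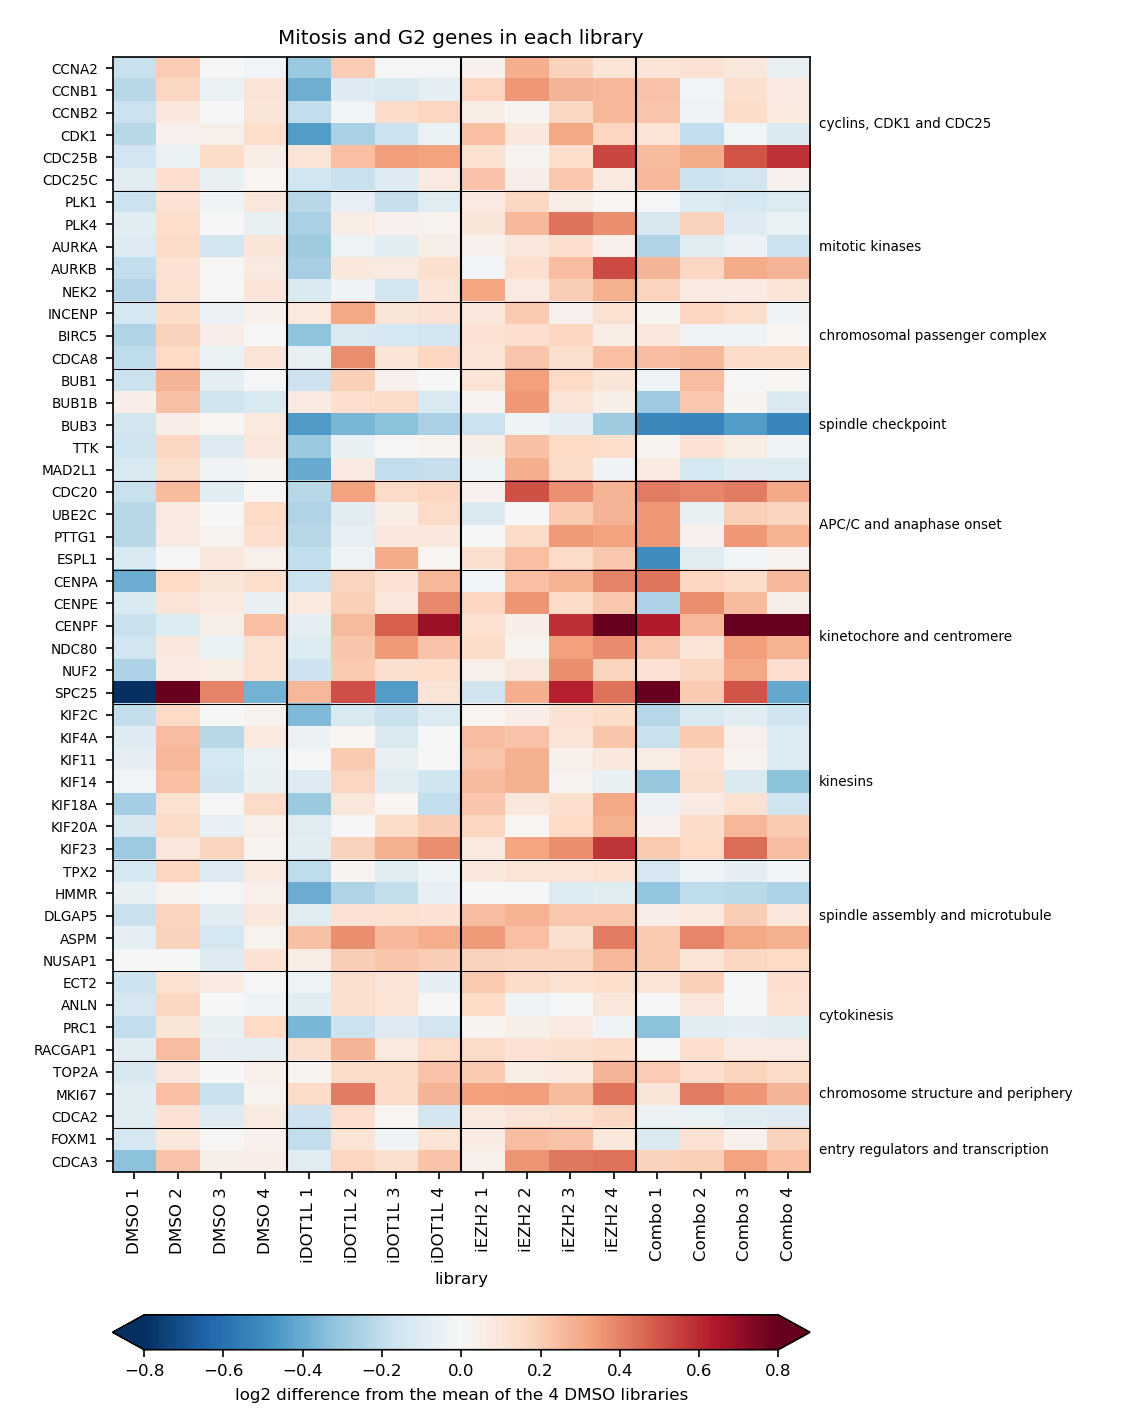
Log2 difference of each member (rows, by role group) from the mean of the 4 DMSO libraries in each of 16 libraries (columns), red for higher and blue for lower, with colours saturated beyond 0.8 in either direction. The columns DMSO 1 and iDOT1L 1 are mostly blue, the 4 iEZH2 columns are mostly red, and the BUB3 row is blue in iDOT1L and Combo.

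The calls with Combo depended on how libraries were scaled. When every library was brought to a common median, Combo against DMSO had 1 member higher (CENPF) and 2 lower (BUB3 and HMMR), with 15.3% of all genes called, 4.65% higher and 10.7% lower, and the member median was -0.01. CDC25B (limma adjusted p = 0.0578), ASPM (0.194), CDC20 (0.219) and MKI67 (0.299) were not called. Over all genes this scaling turned 1613 higher and 1966 lower into 1039 and 2386. The split for Combo against iDOT1L went from 247 higher and 330 lower to 184 and 402, and that for Combo against iEZH2 from 465 and 385 to 363 and 514. ASPM with iDOT1L was then no longer called (limma adjusted p = 0.258), whereas with iEZH2 48 of 50 members stayed above 0 with a median of 0.15.

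Other cell cycle genes were taken from lists of textbook genes that hold no member. In the list of DREAM, MuvB and E2F regulators, none of 22 genes was called with iDOT1L, 1 rose with iEZH2 and 4 rose with Combo. E2F5, a repressor E2F, rose from 225.1 ± 38.8 to 349.5 ± 27.0 normalised counts with iEZH2 (0.65 ± 0.13, limma adjusted p = 0.00627) and to 327.9 ± 33.5 with Combo (0.55 ± 0.13, adjusted p = 0.00464). E2F8, another repressor, rose by 0.39 ± 0.10 with Combo (limma adjusted p = 0.00985), and E2F4, the E2F of DREAM, by 0.43 ± 0.12 (adjusted p = 0.0176, lost without DMSO 1 or Combo 3). With a common median E2F8 and E2F4 were not called (limma adjusted p = 0.0985 and 0.138).

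Condensin and cohesin genes, which compact and hold sister chromatids, included 1 fall of 21 with iDOT1L, none called with iEZH2 and 4 falls with Combo. Of all genes 3.17% were lower with iDOT1L, 3.35% were called with iEZH2, and 7.22% were higher and 8.8% lower with Combo. SMC4, a condensin subunit, fell from 20160 ± 973 normalised counts in DMSO to 13470 ± 542 with Combo (-0.58 ± 0.09, limma adjusted p = 0.000175). With iDOT1L it averaged 15780 ± 1540 (-0.36 ± 0.09, limma adjusted p = 0.0222), a call lost without DMSO 1 or 2 or iDOT1L 2, 3 or 4. Of 34 further spindle, kinesin and cytokinesis genes 2 fell with iDOT1L, none was called with iEZH2, and 4 rose and 2 fell with Combo. HAUS6, a subunit of the augmin complex that branches spindle microtubules, fell from 2183 ± 98.5 to 1643 ± 61.3 with iDOT1L (-0.41 ± 0.09, limma adjusted p = 0.00970) and to 1460 ± 62.9 with Combo (-0.58 ± 0.09, adjusted p = 0.000205). NUMA1, a spindle pole protein, fell by 0.52 ± 0.09 with Combo (limma adjusted p = 0.000758) and by 0.32 ± 0.09 with iDOT1L (adjusted p = 0.0467, kept without DMSO 2 alone). PLK2, a polo-like kinase of centriole duplication, rose from 83.94 to 166.0 normalised counts with Combo (1.03 ± 0.25, limma adjusted p = 0.00762). With a common median the other 3 rises with Combo, of STMN1 (limma adjusted p = 0.112), KIF22 (0.151) and KIF15 (0.207), were not called.

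Of 27 further regulators of G2 and mitotic entry 1 fell with iDOT1L, 1 rose with iEZH2, and 2 rose and 3 fell with Combo. MASTL, the Greatwall kinase that restrains the phosphatase opposing CDK1, fell from 845.1 ± 68.0 to 618.7 ± 27.6 normalised counts with Combo (-0.45 ± 0.10, limma adjusted p = 0.00361), and CHEK2, a DNA damage kinase, fell by 0.39 ± 0.10 (adjusted p = 0.00833). With iDOT1L CHEK2 fell by 0.38 ± 0.10 (limma adjusted p = 0.0197, lost without DMSO 1 or 4 or iDOT1L 1 or 3). TROAP rose by 0.64 ± 0.15 with iEZH2 (limma adjusted p = 0.0205, lost without DMSO 1 or iEZH2 2 or 4) and by 0.79 ± 0.15 with Combo (adjusted p = 0.000980), and the phosphatase CDKN3 by 0.59 ± 0.13 (adjusted p = 0.00445). In the APC/C and exit list of 22 genes none was called with a single inhibitor, and with Combo 2 rose and 3 fell, among them the APC/C subunits ANAPC7 (0.41 ± 0.10, limma adjusted p = 0.00599) and CDC27 (-0.43 ± 0.10, adjusted p = 0.00722). Of 32 further kinetochore genes 1 rose with Combo, MIS12 (0.31 ± 0.09, limma adjusted p = 0.0290), which was lost without DMSO 1, 3 or 4 or Combo 1, 2 or 4. With a common median ANAPC7 (limma adjusted p = 0.0823) and MIS12 (0.241) were not called.

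Of 38 genes of DNA replication and the G1/S step, 36 had a difference above 0 with iEZH2, with a median of 0.20, and 1 was called (POLE2, a polymerase epsilon subunit, 0.42 ± 0.10, limma adjusted p = 0.0273, lost without DMSO 1 or 3 or iEZH2 3 or 4 and with a common median). None of them was called with iDOT1L, and 2 rose (ORC6 and POLE2, both not called with a common median) and 1 fell (TK1) with Combo. Above 0 with iEZH2 also lay 28 of the 32 further kinetochore genes and 30 of the 34 further spindle genes, each list with a median of 0.16. In the APC/C list it was 13 of 22, and among G1 cyclins, their kinases and CDK inhibitors 6 of 13. G1 cyclins, their kinases and CDK inhibitors gave 5 falls of 13 with iDOT1L, none called with iEZH2 and 4 falls with Combo. Of all genes 3.17% were lower with iDOT1L, 3.35% were called with iEZH2 and 8.8% were lower with Combo. CDKN1A (p21), an inhibitor of cyclin-dependent kinases, fell from 5055 ± 385 to 3463 ± 359 normalised counts with iDOT1L (-0.55 ± 0.09, limma adjusted p = 0.000564) and to 3329 ± 190 with Combo (-0.60 ± 0.09, adjusted p = 8.12e-05). CCND2, cyclin D2, fell by 0.46 ± 0.09 with each (limma adjusted p = 0.00236 and 0.00102). CCND1, cyclin D1, fell by 1.21 ± 0.25 with iDOT1L (limma adjusted p = 0.00571).

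The replicate block moved the list counts too. With iEZH2 against DMSO, where it called 3.87% of all genes higher and 5.89% lower, it gave 12 of 38 replication genes higher and none lower, 8 higher and 2 lower of the 34 spindle genes, 5 higher of the 27 entry regulators, 4 higher and 1 lower of the 32 kinetochore genes and 3 higher of the 22 DREAM and E2F genes. The APC/C list and the condensin and cohesin list each had 2 higher and 1 lower, and the G1 list 1 lower. With iDOT1L, where it called 5.69% of all genes higher and 6.53% lower, it gave 3 higher and 2 lower spindle genes, 2 higher and 1 lower DREAM and E2F genes, 1 higher and 2 lower entry regulators, and 1 higher and 2 lower replication genes. The kinetochore list had 1 higher, the APC/C list 1 lower, the condensin and cohesin list 1 lower and the G1 list 5 lower.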

How the data were processed

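Total RNA of 16 Molm14 libraries was sequenced, and kallisto, DESeq2 and hg38 are named in the submitters' processing notes, with versions and annotation not given in the sources used here. A protocol line that places extraction 3 days after a sort does not match the 7 days of treatment and was set aside. The log2 values the authors deposited have the form of variance-stabilised counts, with a lowest value of 6.28106, and were turned back into normalised counts. Of 22445 IDs 20784 matched GENCODE v29. Depth was estimated from evenly spaced low values, of which 62.2% to 65.5% lay within 0.1 read of a whole number. Because the table holds no counts, groups were compared with limma 3.58.1 (trend, robust, R 4.3.3) on log2(normalised count + 1) with a mean for each of 4 groups, after keeping 22331 genes above 1 in at least 4 libraries. The step was tested on simulated data, with planted changes larger than any member's difference and no effect of the replicate number. That test does not cover differences of the members' size.

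Residuals of same-numbered libraries correlated at 0.109 to 0.5 for DMSO and iDOT1L, 0.198 to 0.581 for DMSO and iEZH2 and 0.113 to 0.639 for iDOT1L and iEZH2 over 12270 genes, so a fit with the replicate number as a block is given beside these comparisons. The block was fitted to all 16 libraries together, so its calls for the single treatments also rest on the Combo libraries. The source names carry 1 shared tag per number in all 4 groups, Combo included, but the labels define neither the number nor the tag. Members, lists and alternatives were chosen with earlier results of these data known. Values in every library are given for 8 fixed members, every member called without the block and, in role groups without one, the member with the lowest p for Combo against DMSO (CDC25C was added after its values were seen). From other lists up to 3 called genes with the lowest adjusted p per comparison with DMSO could be named.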

Additional observations from a re-analysis of the deposited data

Results flagged for a closer look

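In 13 of the 200 combinations of a member and a group, 1 library stood apart from the other 3 by more than Dixon's 95% critical value for 4 libraries. Chance flags about 1 in 20 groups. iDOT1L 1 was the library apart in 5 of the 13, each time below the others. There CCNB1 had 2002 normalised counts (others 2414 to 2488), PLK4 1018 (1244 to 1274), AURKB 793.6 (999.8 to 1042), BIRC5 1563 (1758 to 1795) and DLGAP5 1705 (1975 to 1984). In DMSO, CENPA stood low in library 1 at 376.3 (others 528.9 to 553.4) and RACGAP1 high in library 2 at 2442 (1928 to 1953). In Combo, MAD2L1 was high at 2380 (2052 to 2104) and PRC1 low at 3534 (4158 to 4225) in library 1, BUB1 high at 3346 (2758 to 2858) in library 2 and BUB3 high at 9308 (8790 to 8869) in library 3. INCENP was high in iDOT1L 2 at 3215 (2746 to 2822), and NUSAP1 in iEZH2 4 at 4386 (4125 to 4148). BIRC5 was no longer called between iDOT1L and iEZH2 without iDOT1L 1 (limma adjusted p = 0.122), whereas CCNB1 was called in each of the 8 fits without 1 library.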

How the results depend on the processing

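Of 104 results of the 13 called member differences over 8 alternatives, 89 kept their call, 15 lost it and none changed sign. The block, the fit without trend and that of only the groups compared leave the fold change itself as it was. No sign could change there. Fits with 1 library left out are not in this count. In them BUB3, CCNB1 and CDK1 kept every call. CDC20, CENPF, MKI67, HMMR, BIRC5 and ASPM with iDOT1L were called in 2 of 8, CDC25B in 5 and ASPM with Combo in 6. Members higher with iDOT1L than DMSO numbered 0 with a common median, with only the groups compared or without trend and robust moderation, 4 with the replicate block and 0 to 2 with 1 library left out, and members lower 3 with the block. Members higher with iEZH2 than DMSO numbered 2 when genes had to exceed 10 normalised counts, 10 with the block and 0 to 2 with 1 library left out (2 without DMSO 2). Members higher with Combo than DMSO numbered 1 with a common median, 2 without trend, 11 with the block (11.3% of all genes higher, 13.3% lower) and 0 to 4 with 1 library left out (0 without DMSO 1), and members lower 1 without trend and 1 to 2 with 1 library left out. The block gave 4 higher for Combo against iDOT1L (3.78% of all genes), 5 lower for Combo against iEZH2 (5.24% of all genes; 1 to 2 members with 1 library left out) and 12 lower for iDOT1L against iEZH2, where the filter at 10 gave 5 and leaving out 1 library 2 to 4. The median for Combo against iEZH2 was -0.17 with a common median. Same-numbered libraries of Combo and the other groups correlated at 0.036 to 0.102 for replicates 1 and 3 and at 0.201 to 0.481 for replicates 2 and 4, so not every pair passed 0.1 and the block for Combo is given here only. The lowest pair among the other groups, replicate 3 of DMSO and iDOT1L at 0.109, lay barely above that cut. The Combo libraries are nonetheless part of the fit with the block that is used for the single treatments. In the other cell cycle lists it gave 0 to 8 genes higher and 0 to 6 lower for Combo against DMSO. The causes of these shifts were not tested. The fit with only the groups compared was not run for the interaction. With 4 libraries a group and a median SE of 0.10, a single member's difference the size of the iEZH2 median (0.16) was under 2 SE.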
